A study of Mus musculus with 22 samples.

Results

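The 10 genes described here mark the steps by which a dividing progenitor of the embryo becomes a neuron: Neurog1, Neurog2, Neurod1, Neurod4, Nhlh1, Nhlh2, Elavl3, Elavl4, Stmn2 and Dcx. They were chosen by symbol, with earlier results of these data known, and each mapped to 1 of the 37680 gene IDs of the count table. The shares of all genes tested are therefore set beside counts of these genes as description, not as support. RNA of whole mouse embryos (strain C57BL/6) was sequenced from 22 pools in 8 groups, defined by transgene line, stage and doxycycline (dox). Oct4 (Pou5f1) and Nanog are transcription factors of the pluripotent early embryo, and doxycycline switches on the Oct4 or Nanog transgene. All groups carried the inducible alleles, controls included: the Oct4 line had the genotype ROSA26tg/+; Oct4tg/+ and the Nanog line ROSA26tg/+; Nanogtg/+. Females of 6 to 7 weeks were mated with males homozygous for both alleles. The Oct4 line had 3 induced (dox+) and 3 control (dox-) pools at E9.5 and 3 induced and 3 control pools at E7.5. The Nanog line had 3 induced and 2 control pools at each stage. For E9.5, mothers of induced embryos drank doxycycline from E6.5, and 3 embryos made a pool. For E7.5, they were injected at E4.5 and then drank it until E7.5, and 8 to 12 embryos made a pool. No group received doxycycline without a transgene, so its own effect cannot be told apart from that of the transgene. The ROSA26 locus is active in most cell types, and the labels do not say in which cells the transgenes were expressed.

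Neurons of the neural tube, cranial ganglia and dorsal root ganglia arise through a chain of basic helix-loop-helix (bHLH) transcription factors. Neurog1 and Neurog2 act in progenitors and commit them to a neuronal fate, also by raising Notch ligands that hold back neighbouring cells. Neurod1 and Neurod4 act after them, and Nhlh1 and Nhlh2 mark young neurons that have just left the cell cycle. Elavl3 and Elavl4 (HuC and HuD) are RNA-binding proteins of neurons. Stmn2 (SCG10) regulates microtubules in growing axons, and Dcx (doublecortin) binds microtubules in migrating neurons.

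Library totals ran from 4.72 to 15.8 M counts at E9.5 and from 6.59 to 42.3 M at E7.5. A count of 0 allows a level of up to 3 counts, which was 0.0709 to 0.636 CPM (counts relative to the library total) per library; this limit covers counting error only. In each line the targeted gene read higher in every induced pool than in every control pool. Pou5f1 read 257 to 283 CPM in Oct4-induced pools at E9.5, against 0.423 to 1.29 CPM in their controls, and Nanog read 348 to 354 CPM in Nanog-induced pools, against 2.06 to 2.35 CPM in theirs. At E7.5, Pou5f1 read 477 to 606 CPM in Oct4-induced pools, against 203 to 242 CPM in their controls, and Nanog read 53.9 to 117 CPM in Nanog-induced pools, against 17.2 to 22.8 CPM in theirs (edgeR adjusted p = 0.000370 for Pou5f1 and 0.0752 for Nanog). Each factor was also higher in the other line at E7.5. Pou5f1 read 460 to 581 CPM in Nanog-induced pools, against 222 to 245 CPM in their controls (adjusted p = 0.000955), and Nanog 24.3 to 34.0 CPM in Oct4-induced pools, against 17.2 to 20.5 CPM in their controls (0.0272). The 3 Nanog-induced libraries at E7.5 were unlike the rest of that stage: gene models under 80 bases summed to 0.575 to 1.13 CPM in them, against 31.3 to 36.8 CPM in their controls. Their mitochondrially encoded share was 5.27% to 8.26%, against 3.30% to 3.63% in those controls. Maternal decidua and blood markers (7 of 7), which whole-embryo pools need not hold, summed to 5.67 to 15.5 CPM at E9.5 and 64.0 to 261 CPM at E7.5.

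**Figure D1:**
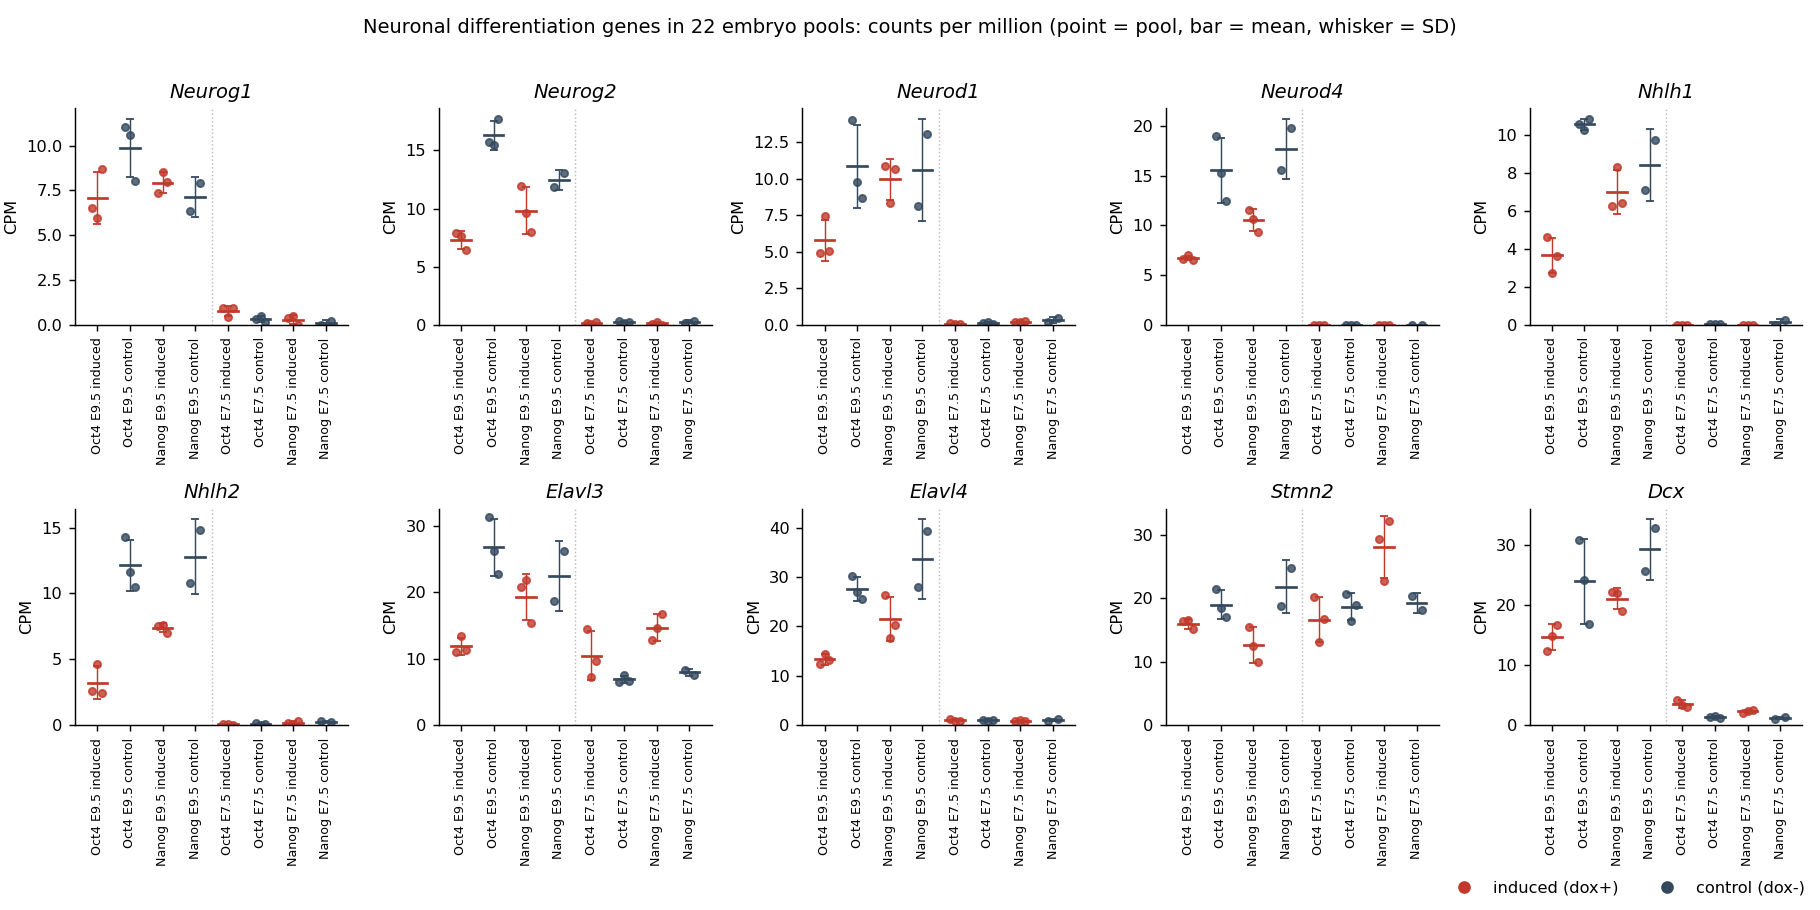
Level of each gene in the 22 pools, in CPM on a linear axis that starts at 0 in each panel; points are pools, bars group means and whiskers the SD (n = 2 or 3), with E9.5 groups left of the dotted line and induced groups in red. A total of 8 genes were near 0 to 4.24 CPM at E7.5 in all groups and 2.41 CPM or higher in every E9.5 pool, while Elavl3 and Stmn2 were well above 0 at both stages.

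Oct4 induction at E9.5 came with lower levels of most of the 10 genes. Neurog2, Neurod1, Neurod4, Nhlh1, Nhlh2, Elavl3 and Elavl4 fell, by 1.95-fold (Neurod1) to 4.06-fold (Nhlh2), and Neurog1, Stmn2 and Dcx did not pass the test. These are 7 of 10 genes lower and 0 higher, against 4.61% of all 13957 genes tested that were called lower (edgeR quasi-likelihood test, Benjamini-Hochberg adjusted p under 0.05). The median log2 fold change of the 10 was -1.12, against 0.0022 over all genes tested. In 9 of the 10, every induced pool lay below every control pool, against 12.7% of all genes tested. Summed over the 10 genes, induced pools held 85.2, 94.6 and 89.2 CPM (replicates 3, 4 and 5), against 198, 169 and 150 CPM in control pools (replicates 1, 2 and 3). Whole embryos were sequenced, so fewer neurons and less RNA per neuron cannot be told apart.

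Of the commitment factors, Neurog1 (chr 13, 56351866 to 56353524, NCBIM37) had 6.54, 5.94 and 8.69 CPM in induced pools, against 11.0, 10.6 and 8.03 CPM in control pools. One induced pool lay above the lowest control pool, so the groups overlapped. The log2 fold change was -0.49 ± 0.17 (SE) with an adjusted p of 0.0859. Neurog1 was called without control replicate 3 (0.0291) and with no filter on low counts (0.0410), in a range over 13 alternatives of 0.0291 to 0.575. Neurog2 (chr 3, 127336054 to 127338549) had 7.89, 7.63 and 6.40 CPM in induced pools, against 15.7, 15.4 and 17.7 CPM in control pools. The groups were far apart, and Neurog2 fell by 1.16 ± 0.14 on the log2 scale (adjusted p = 1.74e-05).

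Neurod1 (chr 2, 79292678 to 79296908) had 4.90, 7.42 and 5.07 CPM in induced pools, against 14.1, 9.81 and 8.68 CPM in control pools. The control pools spread widely but did not overlap with the induced ones. Neurod1 fell by 0.97 ± 0.20 (adjusted p = 0.00608); the call was lost without induced replicate 3 (0.0677), without induced replicate 5 (0.0563) and in 1 model over all 22 libraries (0.0870), in a range of 2.1e-06 to 0.0870. Its gene model overlaps Cerkl and the long noncoding Gm17325, so reads of these models may be shared. Neurod4 (chr 10, 129705209 to 129717296) had 6.64, 7.00 and 6.52 CPM in induced pools, against 19.0, 15.3 and 12.4 CPM in control pools. Its induced pools were nearly equal and all below the controls, a fall of 1.23 ± 0.16 (adjusted p = 4.38e-05).

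The young-neuron factors Nhlh1 and Nhlh2 had the most negative log2 fold changes of the 10. Nhlh1 (chr 1, 173982423 to 173987704) had 4.62, 2.76 and 3.62 CPM in induced pools, against 10.6, 10.3 and 10.9 CPM in control pools. The controls were tightly grouped, and Nhlh1 fell by 1.47 ± 0.18 (adjusted p = 2.54e-05). Nhlh2 (chr 3, 101814068 to 101819415) had 2.60, 4.66 and 2.41 CPM in induced pools, against 14.3, 11.6 and 10.5 CPM in control pools. Even the highest induced pool stood well below the controls, and Nhlh2 fell by 2.02 ± 0.21 (adjusted p = 5.59e-06). Counts behind these induced values were small, 13 to 48 for Nhlh1 and 20 to 27 for Nhlh2.

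Both RNA-binding genes fell. Elavl3 (chr 9, 21819449 to 21856467) had 11.0, 13.4 and 11.3 CPM in induced pools, against 31.3, 26.2 and 22.8 CPM in control pools, a fall of 1.21 ± 0.12 (adjusted p = 4.25e-06). Elavl4 (chr 4, 109876327 to 110024514) had 12.3, 14.4 and 13.3 CPM in induced pools, against 30.2, 26.9 and 25.6 CPM in control pools, a fall of 1.08 ± 0.10 (adjusted p = 1.86e-06). Neither gene's groups overlapped. The ratio of Elavl3 to Elavl4, each per kilobase, was 0.954 ± 0.039 in induced pools and 1.04 ± 0.08 in control pools (SD, n = 3 each), and the ranges overlapped.

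Neither cytoskeletal gene passed the test. Stmn2 (chr 3, 8509527 to 8561604) had 16.3, 16.5 and 15.1 CPM in induced pools, against 21.4, 18.5 and 17.0 CPM in control pools. The groups did not overlap, but the difference was small, at -0.26 ± 0.11 (adjusted p = 0.161). Dcx (chr X, 140290385 to 140367854) had 12.4, 14.8 and 16.8 CPM in induced pools, against 30.9, 24.2 and 16.8 CPM in control pools. Control replicate 3 stood just above the highest induced pool, and the fold change of -0.74 ± 0.25 did not pass the test (adjusted p = 0.146). Dcx was called without control replicate 3 (0.000179), by DESeq2 (0.00588), with no filter on low counts (9.11e-06) and in 1 model over all 22 libraries (0.0309), in a range of 9.11e-06 to 0.342.

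**Figure D2:**
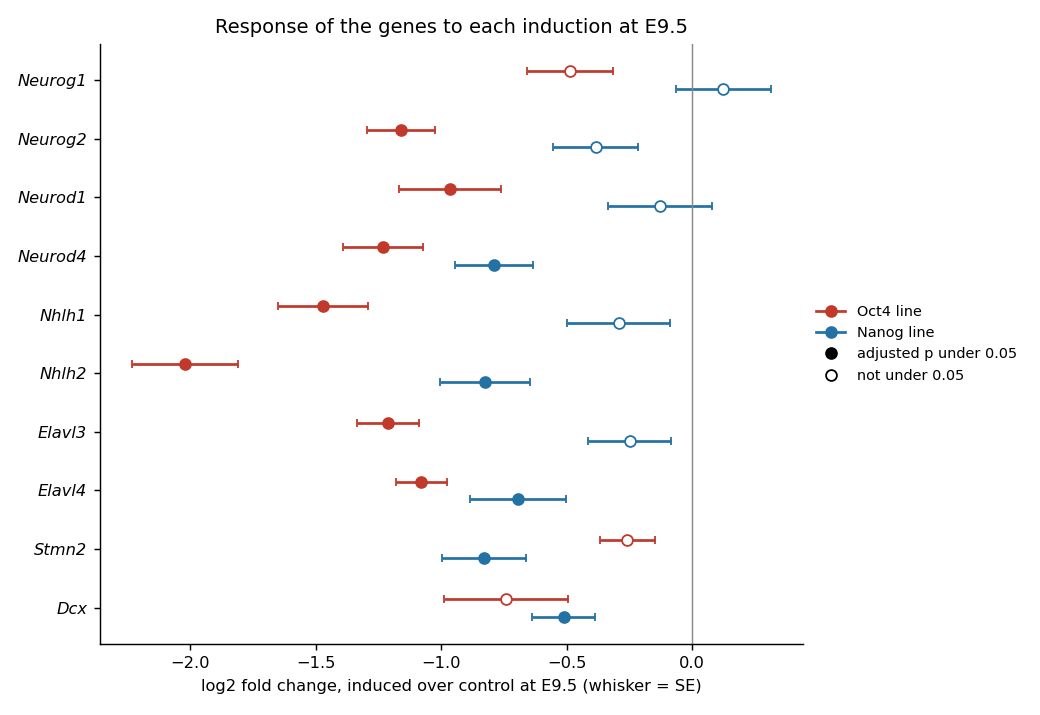
Log2 fold change, induced over control, of the 10 genes at E9.5 (x axis; whiskers are the SE; red, Oct4 line; blue, Nanog line; filled, adjusted p under 0.05). All 10 values of the Oct4 line lie below 0, from -2.02 for Nhlh2 to -0.26 for Stmn2, and 9 of the 10 values of the Nanog line do.

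Markers of other cell types were read in the same pools. The 8 of 8 defining neuron markers that are not among the 10 genes (Tubb3, Ina, Nefl, Nefm, Gap43, Stmn4, Celf3 and Slc17a6) summed to 152 to 167 CPM in Oct4-induced pools, against 191 to 259 CPM in control pools; Slc17a6 was at 0 in at least 1 induced pool. Not all of them were lower: Gap43 averaged 48.2 CPM in induced and 39.6 CPM in control pools. The 6 of 6 embryonic blood markers, mostly globins, summed to 6242 to 7610 CPM in induced pools, against 4437 to 5704 CPM in control pools, with none at 0; their part in the result was not tested. Neural crest markers (6 of 6, none at 0) read 214 to 239 CPM in induced pools, against 211 to 230 CPM in control pools. Placode and otic markers (6 of 6, none at 0) read 89.5 to 102 CPM in induced pools, against 94.9 to 101 CPM in control pools, and heart markers (6 of 6, none at 0) 607 to 691 CPM, against 549 to 661 CPM. The summed ranges of these 3 lists overlapped between induced and control pools, but some single markers did not. Sox10 read 23.1 to 29.0 CPM in induced pools, against 16.3 to 18.6 CPM in control pools. Pax2 read 8.37 to 8.57 CPM, against 5.83 to 6.24 CPM. Tnnt2 and Nkx2-5 also lay above every control pool, while Eya1 lay below, at 33.7 to 37.1 CPM, against 37.6 to 43.4 CPM. These marker differences were not tested. Neurod1 is also a gene of pancreatic islet cells, whose 7 markers summed to 3.82 to 5.67 CPM in Oct4-induced pools, against 2.61 to 6.09 CPM in control pools at E9.5. Ins1 and Ins2 were at 0 in all of these pools, while Chga averaged 2.64 CPM in induced and 2.33 CPM in control pools, Gcg 1.37 and 1.15 CPM, and Pdx1 0.807 and 0.443 CPM.

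Promoters of 4 of the 10 genes are printed because they held a motif that bears on the study or the family. The sequences are from RefSeq (GRCm38.p6, 250 bases before to 50 after the gene start, on the gene's strand), and 9 of the 10 genes matched an entry. Motifs searched on both strands were the octamer ATGCAAAT, which Oct4 and other POU factors bind, and E-boxes, which bHLH factors bind. One E-box was CAGCTG, the other CATCTG, found as its reverse complement in both matches shown. Capitals mark the matches, and no match overlapped another. The octamer lies 138 bases before the start of Neurog1 and was held by 1 of the 9 promoters, against 1.74% of the 32851 starts in the table. CATCTG lies 203 bases before the start of Nhlh1 and 127 bases before that of Nhlh2 (2 of 9, against 17.2% of all starts). CAGCTG lies 44 bases after the start of Nhlh2 and 43 bases before that of Elavl3 (2 of 9, against 16.3%). The intervals are chr13:56252131-56252430 for Neurog1, chr1:172057547-172057846 for Nhlh1, chr3:102009895-102010194 for Nhlh2 and chr9:22051974-22052273 for Elavl3; only Nhlh2 is on the plus strand. The matches are descriptions of these letters, not sites of binding.
Neurog1: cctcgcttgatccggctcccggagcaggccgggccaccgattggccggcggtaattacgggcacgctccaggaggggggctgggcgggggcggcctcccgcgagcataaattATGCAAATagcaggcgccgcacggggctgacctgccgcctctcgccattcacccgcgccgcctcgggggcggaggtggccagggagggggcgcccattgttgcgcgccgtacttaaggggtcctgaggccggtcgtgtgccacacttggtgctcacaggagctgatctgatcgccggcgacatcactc
Nhlh1: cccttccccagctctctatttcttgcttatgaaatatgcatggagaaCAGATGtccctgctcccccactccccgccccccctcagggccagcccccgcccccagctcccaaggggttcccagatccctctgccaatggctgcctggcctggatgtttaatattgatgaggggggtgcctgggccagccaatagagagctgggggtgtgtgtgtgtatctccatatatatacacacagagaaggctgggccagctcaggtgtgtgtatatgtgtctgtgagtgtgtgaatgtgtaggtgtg
Nhlh2: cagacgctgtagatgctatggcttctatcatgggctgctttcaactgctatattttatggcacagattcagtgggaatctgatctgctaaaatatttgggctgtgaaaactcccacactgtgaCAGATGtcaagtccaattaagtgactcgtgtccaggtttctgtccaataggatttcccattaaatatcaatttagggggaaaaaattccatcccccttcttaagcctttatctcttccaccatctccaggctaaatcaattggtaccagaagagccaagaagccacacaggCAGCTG
Elavl3: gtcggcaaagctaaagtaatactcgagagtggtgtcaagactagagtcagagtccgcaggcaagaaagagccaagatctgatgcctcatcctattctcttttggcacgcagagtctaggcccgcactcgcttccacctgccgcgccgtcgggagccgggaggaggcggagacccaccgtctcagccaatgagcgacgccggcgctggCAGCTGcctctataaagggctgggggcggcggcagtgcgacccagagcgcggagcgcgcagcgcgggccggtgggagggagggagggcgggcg

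Nanog induction at E9.5 also came with lower levels of part of the 10 genes. Depth ran with induction here, at 4.77, 5.63 and 5.15 M counts in induced libraries, against 15.8 and 15.7 M in control libraries. The part of depth in the result was not tested. Neurod4, Nhlh2, Elavl4, Stmn2 and Dcx fell, by 1.43-fold (Dcx) to 1.78-fold (Stmn2), which is 5 of 10 lower and 0 higher, against 13% of all 13305 genes tested that were called lower. The median log2 fold change was -0.45, against 0.0037 over all genes tested. In 5 of the 10 every induced pool lay below every control pool, against 22.8% of all genes tested. Summed over the 10 genes, induced pools held 140, 127 and 114 CPM (replicates 1, 2 and 3), against 151 and 202 CPM in control pools (replicates 2 and 3). With 2 control pools, single libraries decided several calls: without control replicate 3 the count was 2 (Neurod4 and Stmn2).

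The factors that start commitment were not called. Neurog1 had 7.33, 8.52 and 7.96 CPM in induced pools, against 6.34 and 7.92 CPM in control pools (log2 fold change 0.12 ± 0.19, adjusted p = 0.661). Its highest control pool lay inside the range of the induced pools. Neurog2 had 11.9, 9.59 and 7.96 CPM in induced pools, against 11.9 and 13.1 CPM in control pools (-0.38 ± 0.17, adjusted p = 0.0988). One induced pool reached the level of a control pool. Without induced replicate 1 Neurog2 was called (0.0419; range over 13 alternatives 0.0400 to 0.342).

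Among the later bHLH genes, Neurod1 had 10.9, 8.34 and 10.7 CPM in induced pools, against 8.12 and 13.1 CPM in control pools, which enclosed all induced values (-0.13 ± 0.21, adjusted p = 0.675). Neurod4 had 11.5, 10.7 and 9.32 CPM in induced pools, against 15.5 and 19.9 CPM in control pools. The groups did not overlap, and Neurod4 fell by 0.79 ± 0.16 (adjusted p = 0.00175). Nhlh1 had 6.28, 8.34 and 6.41 CPM in induced pools, against 7.10 and 9.77 CPM in control pools; the groups overlapped (-0.29 ± 0.21, adjusted p = 0.303). Nhlh2 had 7.54, 7.63 and 6.99 CPM in induced pools, against 10.8 and 14.8 CPM in control pools. Its induced pools were nearly equal, and Nhlh2 fell by 0.83 ± 0.18 (adjusted p = 0.00337), a call lost without control replicate 3 (0.0757) and in 1 model over all 22 libraries (0.0757), in a range of 4.32e-05 to 0.0757.

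Elavl3 and Elavl4 differed in whether they were called, though the difference between these 2 genes was not tested. Elavl3 had 20.7, 21.8 and 15.3 CPM in induced pools, against 18.7 and 26.2 CPM in control pools, with overlap (-0.25 ± 0.17, adjusted p = 0.286). Elavl4 had 26.4, 17.8 and 20.4 CPM in induced pools, against 28.0 and 39.5 CPM in control pools, a fall of 0.69 ± 0.19 (adjusted p = 0.0284). One induced pool was close to the lower control pool. The call was lost without control replicate 3 (0.0788), without induced replicate 2 (0.155), without induced replicate 3 (0.129) and by limma-voom (0.0580), in a range of 2.3e-08 to 0.155.

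Stmn2 had 15.5, 12.4 and 9.91 CPM in Nanog-induced pools, against 18.8 and 24.8 CPM in control pools, and fell by 0.83 ± 0.17 (adjusted p = 0.00221). Dcx had 22.2, 22.02 and 19.0 CPM in induced pools, against 25.8 and 32.9 CPM in control pools, and fell by 0.51 ± 0.13 (adjusted p = 0.00690). Neither gene's groups overlapped. The Dcx call was lost without control replicate 3 (0.145) and in 1 model over all 22 libraries (0.0777), in a range of 0.000107 to 0.145. The 8 other neuron markers summed to 203 to 215 CPM in Nanog-induced pools, inside the range of 177 to 253 CPM in control pools. Embryonic blood markers (6 of 6, none at 0) summed to 1335 to 1821 CPM in induced pools, against 4661 to 6190 CPM in control pools; their part in the result was not tested.

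**Figure D3:**
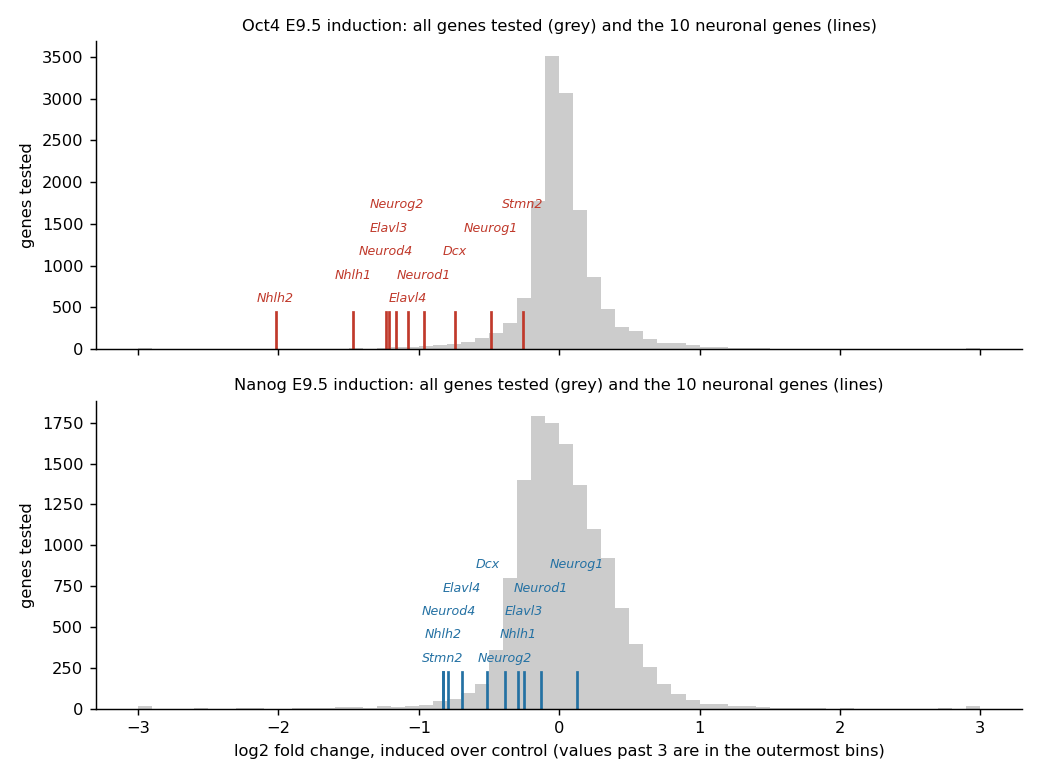
Distribution of log2 fold changes, induced over control, of all genes tested at E9.5 (grey bars, genes per bin of 0.1) with the 10 neuronal genes as coloured lines; Oct4 line above, Nanog line below. The 10 genes have a median of -1.12 in the Oct4 line and -0.45 in the Nanog line, against 0.0022 and 0.0037 for all genes tested.

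The responses to Oct4 and to Nanog at E9.5 were compared as an interaction, the Oct4 log2 fold change minus that of Nanog. A total of 4 of the 10 genes differed, all with the lower response in the Oct4 line, against 7.92% of all 14604 genes tested. The differences were -1.17 ± 0.28 for Nhlh1 (adjusted p = 0.00704), -1.19 ± 0.30 for Nhlh2 (0.0103), -0.96 ± 0.24 for Elavl3 (0.0188) and -0.77 ± 0.22 for Neurog2 (0.0203). The Neurog2 call was lost by DESeq2 (0.0565). Stmn2 had the opposite sign, 0.58 ± 0.20, and did not pass the test (0.0644). It was called with no filter on low counts (0.0191), without Oct4 control replicate 1 (0.0408) and without Nanog induced replicate 1 (0.0203). Neurod1 (-0.83 ± 0.34, adjusted p = 0.116), Neurog1 (-0.61 ± 0.26, 0.121), Neurod4 (-0.44 ± 0.23, 0.219), Elavl4 (-0.38 ± 0.22, 0.285) and Dcx (-0.22 ± 0.31, 0.700) were not called. Without Nanog control replicate 3, Neurod1 (0.0224) and Elavl4 (0.0382) were. The calls depended on single libraries. Without Nanog control replicate 2 only Stmn2 was called, without Oct4 induced replicate 3 Neurog2 and Nhlh1, and without Oct4 induced replicate 5 Nhlh1 and Nhlh2. In 1 model over all 22 libraries 0 of the 10 were called (adjusted p of the 4 genes 0.111 to 0.223).

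At E7.5 the neural plate is forming and few if any neurons exist, and most of the 10 genes were close to the counting limit. Neurod4 had 0 counts in all 11 libraries. Nhlh1 had 0 counts in all 6 induced pools and at most 2 counts in a control pool. Neurog2, Neurod1 and Nhlh2 had at most 0.469 CPM in any pool. Stmn2, Elavl3, Dcx, Elavl4 and Neurog1 were tested in the Oct4 line and Stmn2, Elavl3 and Dcx in the Nanog line, since the others did not pass the filter on low counts. The 8 other neuron markers still summed to 72.8 to 80.8 CPM in Oct4-line controls at this stage. Reads of these markers, and of Stmn2 and Elavl3, need not come from neurons here, and their cells of origin were not tested.

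Oct4 induction at E7.5 came with a higher level of Dcx, 1 of 5 genes tested, against 2.25% of all 16071 genes tested that were called higher. Dcx had 4.24, 3.32 and 2.97 CPM in induced pools, against 1.36, 1.44 and 1.21 CPM in control pools (replicates 1, 2 and 3 in both). Every induced pool was above every control pool, which held for 8.72% of all genes tested, and Dcx rose by 1.43 ± 0.20 on the log2 scale (adjusted p = 0.00357). Elavl3 had 14.4, 7.18 and 9.65 CPM in induced pools, against 6.53, 7.52 and 6.71 CPM in control pools. Induced replicate 1 was highest and induced replicate 2 lay inside the control range (0.62 ± 0.22, adjusted p = 0.164). Without induced replicate 2 Elavl3 was called (0.0274; range over 14 alternatives 0.0274 to 0.409).

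Neurog1 had 0.923, 0.426 and 0.924 CPM in Oct4-induced pools, against 0.306, 0.480 and 0.165 CPM in control pools, which is 15 to 37 counts against 7 to 19. The groups overlapped, and the log2 fold change of 1.27 ± 0.45 did not pass the test (adjusted p = 0.160), though it did in 1 model over all 22 libraries (0.0459; range over 14 alternatives 0.0459 to 0.473). Elavl4 had 1.20, 0.908 and 0.844 CPM in induced pools, against 1.09, 0.858 and 1.13 CPM in control pools (-0.01 ± 0.24). Stmn2 had 20.1, 13.1 and 16.7 CPM in induced pools, against 20.7, 16.4 and 19.0 CPM in control pools (-0.13 ± 0.15). Induced and control pools overlapped for both genes, with adjusted p of 0.990 and 0.750. Placode and otic markers (6 of 6) summed to 5.25 to 7.76 CPM in induced pools, against 12.2 to 19.6 CPM in control pools, where Oc90 was at 0. The 8 other neuron markers (none at 0) summed to 63.6 to 97.8 CPM in induced pools, against 72.8 to 80.8 CPM in control pools. Embryonic blood markers (6 of 6) summed to 9.93 to 16.3 CPM in induced pools, where Hba-x and Hbb-y were at 0 in at least 1 pool, against 83.0 to 137.7 CPM in control pools; the part of these marker differences in the result was not tested.

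Nanog induction at E7.5 came with a higher level of Elavl3, 1 of 3 genes tested, against 2.96% of all 14118 genes tested. Elavl3 had 12.7, 14.7 and 16.7 CPM in induced pools (replicates 1, 3 and 4), against 8.35 and 7.61 CPM in control pools (replicates 2 and 3). The groups did not overlap, and Elavl3 rose by 0.93 ± 0.20 (adjusted p = 0.0237). The call was lost without control replicate 2 (0.154), control replicate 3 (0.207) or induced replicate 3 (0.0580), in a range of 0.00203 to 0.207. Stmn2 had 29.2, 22.7 and 32.2 CPM in induced pools, against 20.3 and 18.2 CPM in control pools (0.58 ± 0.17, adjusted p = 0.0732), and was called without induced replicate 3 (0.0367; range 0.0104 to 0.376). Dcx had 2.02, 2.42 and 2.44 CPM in induced pools, against 1.06 and 1.30 CPM in control pools (log2 fold change 1.0 ± 0.40, adjusted p = 0.166), and was called in 1 model over all 22 libraries (0.04995; range 0.04995 to 0.576). Among genes not tested, Elavl4 had 0.733, 1.08 and 0.863 CPM in induced pools, against 0.910 and 1.171 CPM in control pools, and Neurog1 had at most 0.50 CPM. All 3 tested genes had every induced pool above every control pool, against 17.5% of all genes tested. These induced libraries are the ones that stood apart in short gene models and mitochondrial share, and that difference cannot be told apart from the induction. Trophoblast markers (6 of 6) summed to 198 to 290 CPM in induced pools, against 33.7 to 129 CPM in control pools, where Prl2c2 and Tpbpa were at 0 in 1 pool or more. Embryonic blood markers (6 of 6) summed to 10.7 to 20.7 CPM in induced pools, where Hba-x, Hbb-y and Klf1 were at 0 in 1 pool or more, against 70.1 to 107 CPM in control pools. The 8 other neuron markers summed to 90.3 to 106 CPM in induced pools, against 81.5 to 83.7 CPM in control pools, where Stmn4 was at 0 in 1 pool; their part in the result was not tested.

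The Oct4 and Nanog responses at E7.5 were not called different for any of 5 genes tested by edgeR (1 at an unadjusted p under 0.05, Stmn2), by DESeq2 (0 called, 1 at an unadjusted p under 0.05) or by limma-voom (0 called, 1 at an unadjusted p under 0.05). Over all 16680 genes tested, 0.204% were called. The Stmn2 difference was -0.73 ± 0.23 (adjusted p = 0.296; range over 19 alternatives 0.130 to 0.588).

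The response to each factor was also compared between stages, as the log2 fold change at E9.5 minus that at E7.5. The stages also differed in the start and route of doxycycline and in pool size. Induction changed Pou5f1 in the Oct4 line 2.60-fold at E7.5 and 334-fold at E9.5. It changed Nanog in the Nanog line 4.71-fold at E7.5 and 155-fold at E9.5. These differences cannot be told apart from an effect of stage. For Oct4, Dcx (-2.16 ± 0.30, adjusted p = 0.000327), Elavl3 (-1.82 ± 0.28, 0.00106), Elavl4 (-1.06 ± 0.23, 0.00950) and Neurog1 (-1.76 ± 0.47, 0.0370) differed, all with the lower response at E9.5. These are 4 of the 10 genes, all tested here, against 1.85% of all 16359 genes tested in that direction. With the replicate number as a block, the E7.5 pools are paired. The E9.5 response then rests on replicate 3 alone, the only number its induced and control pools share. In that fit the differences were -1.54 for Neurog1, -1.63 for Elavl3 and -1.04 for Elavl4. With a single pair at E9.5, it cannot decide whether the calls hold. The Neurog1 call was lost in 8 of the 12 fits that left out 1 library, with adjusted p up to 0.108 in these fits. For Nanog, Stmn2 (-1.42 ± 0.27, 0.00514), Dcx (-1.52 ± 0.32, 0.00748) and Elavl3 (-1.19 ± 0.28, 0.0146) differed. These are 3 of the 10 genes, all lower at E9.5, against 4.79% of all 14897 genes tested in that direction. Elavl3 was lost without control replicate 3 at E7.5 (0.0840) or at E9.5 (0.0907), and Dcx by limma-voom (0.0664). These values rest on the Nanog-induced E7.5 libraries that differed in short gene models and mitochondrial share. For Oct4, Stmn2 gave -0.12 ± 0.20 (0.817) and was not called. Differences of genes that did not pass the filter on low counts at E7.5 are not given.

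Between E7.5 and E9.5 control pools, 9 of the 10 genes rose in both lines, against 36.5% of all 15770 genes tested in the Oct4 line and 31.8% of 14872 in the Nanog line. Neurog2, Neurod1, Neurod4, Nhlh1 and Nhlh2, and in the Nanog line Neurog1 and Elavl4, did not pass the filter on low counts within E7.5. They entered this test through their E9.5 level and could only be called higher, so the count of genes that rose is no support. These control pools are the same as in the inductions. Stage also moved with short gene models, at 0.634 to 1.70 CPM in E9.5 controls and 29.0 to 51.9 CPM in E7.5 controls, and with the mitochondrial share, at 2.38% to 2.88% and 3.30% to 5.51%; their part in the result was not tested. Neurod4, at 0 counts in E7.5 controls, was at least 581-fold higher at E9.5 in the Oct4 line and at least 89.2-fold higher in the Nanog line, against a floor of 3 counts over the E7.5 group. In the Oct4 line the log2 fold changes were 7.81 ± 0.28 for Nhlh1, 6.94 ± 0.32 for Nhlh2, 6.17 ± 0.36 for Neurod1, 5.89 ± 0.21 for Neurog2, 4.75 ± 0.31 for Neurog1, 4.55 ± 0.14 for Elavl4, 3.97 ± 0.22 for Dcx and 1.75 ± 0.13 for Elavl3. The Nhlh1 value rests on 4 counts at E7.5. In the Nanog line Neurog1 and Nhlh1 had 2 counts each over the E7.5 controls, and the ratios of summed levels were 53.9 (95% exact interval 14.8 to 448) and 63.8 (17.5 to 529). Elavl3 rose by 1.43 ± 0.18 there, the smallest change of the 9.

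Stmn2 was the exception. It averaged 19.0 ± 2.3 CPM at E9.5 and 18.7 ± 2.2 CPM at E7.5 in Oct4-line controls (SD, n = 3 each), with a log2 fold change of -0.17 ± 0.11 (adjusted p = 0.188) whose sign turned to 0.02 with scaling by library totals only. That scaling moved the median of all genes in this comparison by 0.199. In the Nanog line the change was 0.12 ± 0.15 (adjusted p = 0.491). Per kilobase of exonic length, Stmn2 was the highest of the 10 genes in all 8 groups, between 6.62 CPM per kb in Nanog-induced pools at E9.5 and 14.7 CPM per kb in Nanog-induced pools at E7.5. The ratio of Stmn2 to Dcx, each per kilobase, was 5.46 ± 1.10 in E9.5 controls and 93.7 ± 15.8 in E7.5 controls of the Oct4 line (SD, n = 3 each). The ratio of Elavl3 to Elavl4 was 1.04 ± 0.08 in E9.5 controls and 7.39 ± 1.74 in E7.5 controls. Both ratios separated the stages without overlap.

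**Figure D4:**
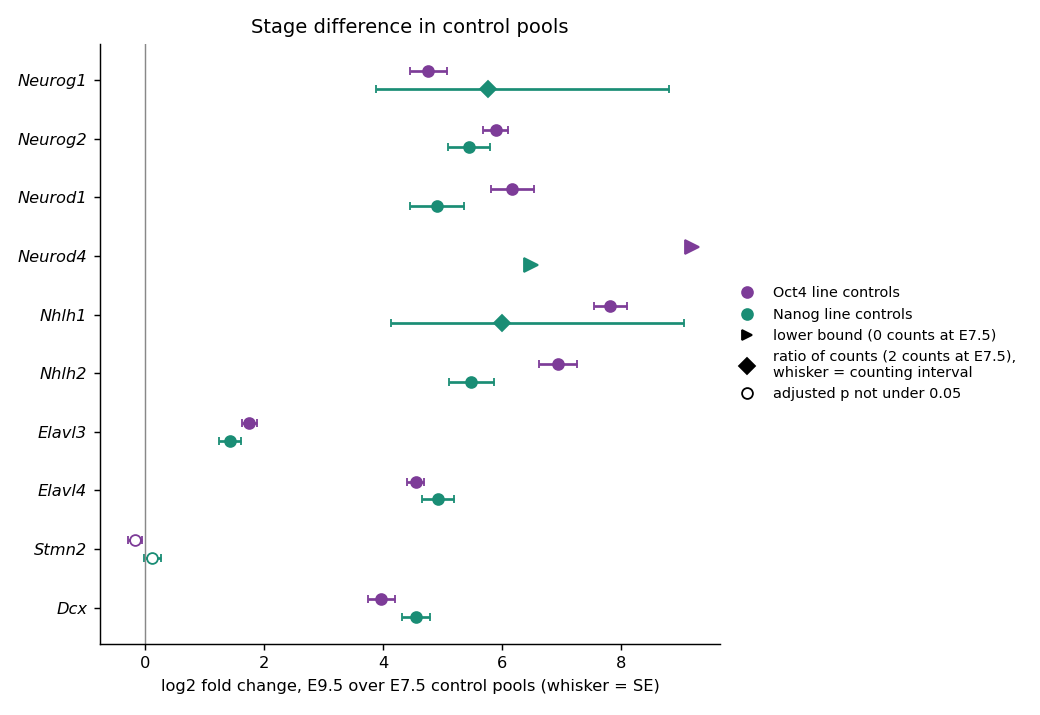
Log2 fold change of each gene in control pools, E9.5 over E7.5 (x axis; purple, Oct4 line; green, Nanog line; whiskers are the SE, or the 95% counting interval for diamonds). Triangles are lower bounds, at least 581-fold and 89.2-fold for Neurod4, and Stmn2 lies near 0 in both lines.

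Per kilobase, the order among the other genes at E9.5 controls ran in the Oct4 line from Neurog2 (7.32 ± 0.56 CPM per kb) over Neurog1 (5.96 ± 0.98), Elavl3 (5.33 ± 0.85), Elavl4 (5.12 ± 0.44) and Neurod4 (4.65 ± 0.98) to Nhlh1 (4.30 ± 0.12), Neurod1 (3.97 ± 1.04), Nhlh2 (3.62 ± 0.58) and Dcx (1.90 ± 0.56). Most neighbours in this order differed by less than their SD. In Oct4-induced pools Nhlh2 had the lowest mean, at 0.962 ± 0.373 CPM per kb, below Dcx at 1.16 ± 0.17. The pools of these genes overlapped, with Nhlh2 at up to 1.39 and Dcx at up to 1.33 CPM per kb. At E7.5 only Stmn2 and Elavl3 reached 1 CPM per kb in a group mean. Across the 8 groups, Neurod4 averaged 6.72 ± 0.25 CPM in Oct4-induced and 10.5 ± 1.1 CPM in Nanog-induced pools at E9.5, against 15.6 ± 3.3 CPM in Oct4-line and 17.7 ± 3.1 CPM in Nanog-line controls. The 2 control groups of Neurod4 overlapped, while both induced groups lay apart from them and from each other. Nhlh2 had the same order, at 3.23 ± 1.25 and 7.39 ± 0.35 CPM in Oct4-induced and Nanog-induced pools, against 12.1 ± 1.9 and 12.8 ± 2.8 CPM in Oct4-line and Nanog-line controls.

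Other genes of neuron formation were read from lists, whose named genes are the up to 4 called genes of lowest p, except Ncam1, Gap43 and Hes1, chosen after their values were seen. Of the other proneural and neurogenic factors, 7 of 11 tested fell with Oct4 at E9.5 and 0 rose (median -0.55), against 4.61% of all genes called lower and 4.69% called higher. Olig2, a factor of the motor neuron domain, fell by 2.60 ± 0.17 (adjusted p = 1.91e-08) and Ebf3 (-0.63 ± 0.11) and Myt1 (-0.99 ± 0.20) also fell. Atoh1, of the dorsal neural tube, had 0.207 ± 0.084 CPM in induced pools and 1.54 ± 0.51 CPM in control pools (SD, n = 3 each; adjusted p = 0.00223). Of 20 pan-neuronal genes, 10 fell and 2 rose (median -0.49). Islr2 (-2.89 ± 0.36), Nefl, a neurofilament (-0.97 ± 0.11), Tubb3, a neuronal tubulin (-0.68 ± 0.09) and Elavl2 (-0.51 ± 0.07) fell, and the adhesion gene Ncam1 (0.42 ± 0.09) and the growth cone gene Gap43 (0.25 ± 0.08) rose. Of 9 subtype and transmitter genes tested, 2 fell and 0 rose, with 5 values below 0 and 4 above (median -0.12). Pou4f1, a factor of sensory neurons, fell by 0.90 ± 0.23 (adjusted p = 0.0196).

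Genes of the progenitor state were called in both directions with Oct4 at E9.5, where 4.61% of all genes were called lower and 4.69% higher. Of 14 neural progenitor genes, 7 fell and 2 rose (median -0.32). Zic1 (-0.99 ± 0.07) and the RNA-binding gene Msi1 (-0.43 ± 0.04) fell, and Irx3 (0.67 ± 0.07) and Gbx2 (0.88 ± 0.10) rose. Of 17 Notch genes, 5 fell and 2 rose (median -0.19). Hes5, a Notch target that blocks neuronal differentiation, fell by 0.94 ± 0.10 (adjusted p = 3.68e-06) and the receptor Notch1 by 0.33 ± 0.06, while Dll3 rose by 0.60 ± 0.14 and Hes1 by 0.26 ± 0.07. Of 7 genes of Rest, which silences neuronal genes, and its cofactors, 0 were called by edgeR, with 2 at an unadjusted p under 0.05 (median -0.02).

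With Nanog at E9.5, 13% of all genes tested were called lower and 15.4% higher. Of the other proneural factors 1 of 10 tested rose, Sox11 (0.60 ± 0.09), and 0 fell (median -0.22). Of 20 pan-neuronal genes 4 fell (Map1b, Ina, Elavl2 and Cntn2, -0.73 to -0.28) and 0 rose (median -0.21), and of 7 subtype genes 0 were called by edgeR, with 0 at an unadjusted p under 0.05 (median -0.01). Of 14 progenitor genes 5 fell and 3 rose (median 0.0090). Pax6, a transcription factor of neural progenitors, fell by 0.72 ± 0.09 (adjusted p = 3.7e-05), Nes fell by 0.25 ± 0.06 and Dach1 by 0.38 ± 0.08, and Irx3 rose by 0.91 ± 0.10. Of 17 Notch genes 4 rose and 1 fell (median -0.01), among them Notch3 (0.41 ± 0.08) and the ligand Jag1 (-0.32 ± 0.08). Of the 7 Rest genes 4 rose, Ctdsp1 (0.42 ± 0.07), Ctdspl (0.35 ± 0.09), Rcor2 (0.33 ± 0.07) and Ctdsp2 (0.30 ± 0.06), and 0 fell (median 0.30).

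At E7.5 the lists were led by lower progenitor and subtype genes. Reads of the list genes need not come from neural cells at this stage, and their cells of origin were not tested. With Oct4, 3.91% of all genes tested were called lower and 2.25% higher. Of 12 progenitor genes 0 rose and 5 fell (median -0.75), among them Gbx2 (-1.76 ± 0.19) and Fabp7 (-1.61 ± 0.18). Of 7 subtype genes 3 fell, Mnx1 (-3.07 ± 0.32), Lmx1b (-1.56 ± 0.18) and Isl1 (-1.47 ± 0.16), and 1 rose, the glutamate transporter Slc17a6 (2.76 ± 0.35; list median -0.44). Of 7 proneural factors Insm1 rose (1.49 ± 0.22) and Ebf3 and Ebf2 fell (median -0.01). Of 20 pan-neuronal genes 3 rose, Stmn4 (1.85 ± 0.29), Nefl (0.72 ± 0.14) and Elavl2 (0.49 ± 0.10), and Mapt fell (-1.29 ± 0.21; list median 0.15). Of 16 Notch genes Dll3 (1.06 ± 0.09) and Lfng (0.61 ± 0.12) rose and 0 fell (median -0.13), and of 7 Rest genes 0 were called by edgeR, with 2 at an unadjusted p under 0.05 (median -0.09). With Nanog, 4.82% of all genes tested were called lower and 2.96% higher. Of 10 progenitor genes 4 fell, led by Dach1 (-2.03 ± 0.24), and of 4 subtype genes 3 fell (Lmx1b, Isl1 and Mnx1), with 0 higher in both (medians -0.52 and -1.68). Of 18 pan-neuronal genes L1cam rose (0.97 ± 0.19) and Map1b fell (-0.67 ± 0.10; list median 0.04). Of 16 Notch genes Notch1 (-1.28 ± 0.11) and Notch2 (-0.68 ± 0.11) fell (median 0.02), of 6 proneural factors Olig3 fell (0.0434 ± 0.0460 CPM in 3 induced and 1.93 ± 0.91 CPM in 2 control pools; list median -1.06), and of 7 Rest genes Ctdsp2 fell (-0.41 ± 0.09; list median -0.18). In each of these 4 inductions the median over all genes tested was between 0.0022 and 0.0158.

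**Figure D5:**
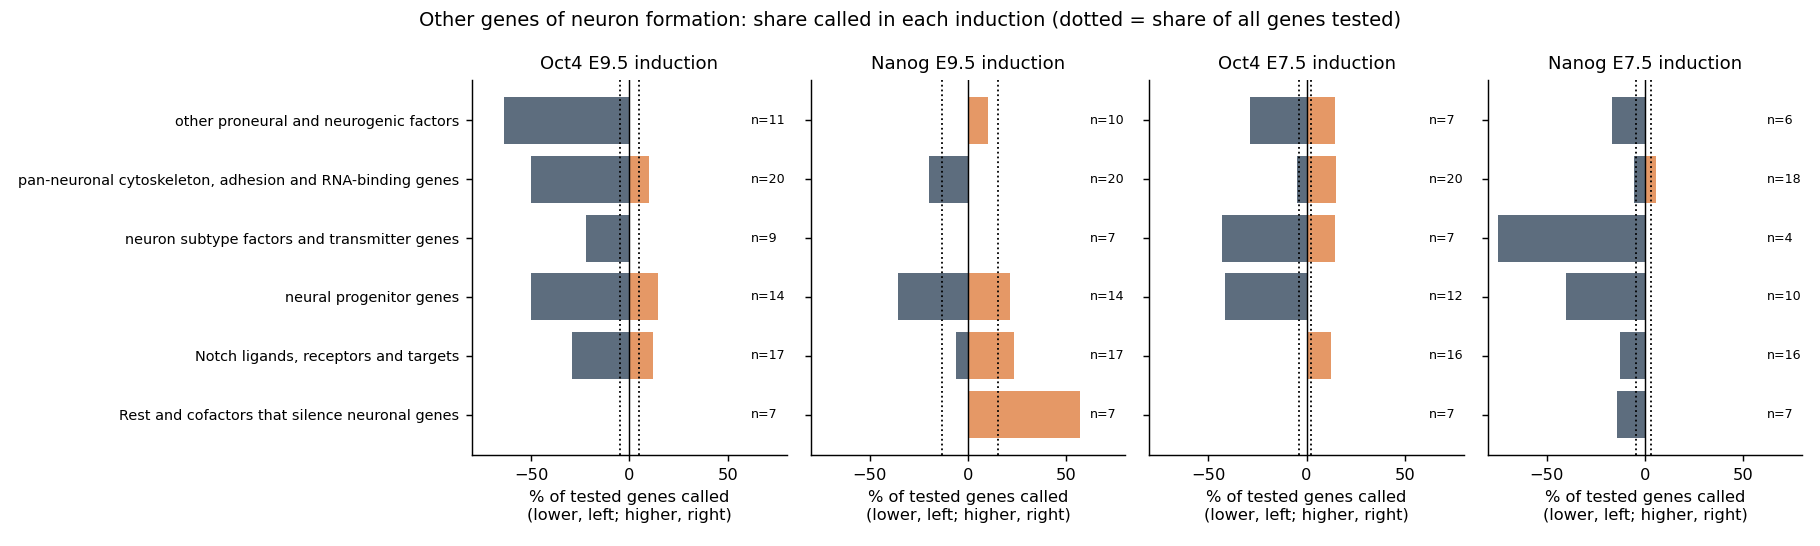
Share of tested genes of each list called lower (left, blue-grey) or higher (right, orange) in the 4 inductions, in percent, with the number tested beside each bar; dotted lines are the shares of all genes tested. Of the proneural list 7 of 11 were lower with Oct4 at E9.5, and 4 of 7 Rest genes were higher with Nanog at E9.5.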

How the data were processed

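RNA-seq of pooled whole mouse embryos was analysed from the expected counts per gene that the authors deposited, made with RSEM 1.17 after cutadapt on NCBIM37, per the submitters' processing notes; Picard and limma are also named there. Libraries were run on a GAII or a HiSeq, per the labels' protocols; which library ran on which, and strandedness, are not given in the sources used here. All 22 libraries were mapped to groups by their labels.

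Expected counts were rounded and tested with edgeR 4.0.16 in R 4.3.3: TMM scaling, the filterByExpr filter, the robust quasi-likelihood F test, two-sided, with Benjamini-Hochberg adjustment over all genes tested and calls under 0.05. The SE is the log2 fold change divided by the square root of F. Each induction was fitted on its own groups, and differences between responses as interaction terms. Levels are CPM of the library total; per-kilobase levels use exonic lengths of GENCODE M1. Of 37680 gene IDs, 37309 were in that annotation. The fits were tested on simulated data. Alternatives were RLE, upper quartile and total-count scaling, DESeq2 1.42.0, limma-voom (limma 3.58.1), no filter, all 22 libraries in 1 model, each library left out, and the replicate number as a block. Tables and figures used Python 3.11.15 with pandas 2.3.3, numpy 2.4.6, scipy 1.17.1 and matplotlib 3.10.9.

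Samples with the same replicate number deviated together in the Oct4 line at E7.5 (correlations of deviations from the group means 0.362, 0.358 and 0.114 over 10605 genes), where the numbers were taken to pair the pools from the data; the labels give no shared litter or day. Replicates are pools of embryos not said to come from separate litters, so p-values measure the spread between these pools. No replicate pair agreed within sampling noise (chi-square per degree of freedom at least 1.60). Intervals and floors cover counting error only.

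The members and lists were chosen with earlier results of these data known. All 10 members are named; of each list, up to 4 called genes of lowest p. Of 92 context genes, 88 matched by symbol and 1 by an older symbol, 2 were divided over gene models and left out, and 1 did not match; of 58 markers, 56 matched by symbol and 2 by an older symbol. Genes of like pattern are the 8 with the lowest root mean square difference from the members' mean centred profile. One gene of the subtype list is not reported here.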

Additional observations from a re-analysis of the deposited data

Results flagged for a closer look

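The response to Oct4 and that to Nanog at E9.5 differed by the interaction test (edgeR quasi-likelihood, adjusted p under 0.05) for Neurog2 (Oct4 minus Nanog log2 fold change -0.77), Nhlh1 (-1.17), Nhlh2 (-1.19) and Elavl3 (-0.96). The response to Oct4 at E9.5 minus that at E7.5 differed from 0 for Neurog1 (-1.76), Elavl3 (-1.82), Elavl4 (-1.06) and Dcx (-2.16). The response to Nanog at E9.5 minus that at E7.5 differed from 0 for Elavl3 (-1.19), Stmn2 (-1.42) and Dcx (-1.52).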

How the results depend on the processing

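Of 1064 values of single genes under an alternative, 973 kept their direction and side of the threshold, 48 lost a call, 22 gained one and 21, none of them called, turned sign. All 71 values kept both under RLE and all 71 under upper quartile scaling. In 1 model over all 22 libraries the number of the 10 genes called was 3 for Oct4 at E7.5, 3 for Nanog at E7.5, 3 for Nanog at E9.5 and 0 for the Oct4 minus Nanog response at E9.5. With no filter it was 2 for Nanog at E7.5. Leaving out 1 library gave 6 to 9 calls for Oct4 at E9.5, 2 to 6 for Nanog at E9.5, 1 to 2 for Oct4 at E7.5, 0 to 1 for Nanog at E7.5, 1 to 6 for the Oct4 minus Nanog response at E9.5, 3 to 4 for the Oct4 and 2 to 3 for the Nanog response between stages, and 9 throughout for both stage comparisons. The replicate block gave 1 call for the Oct4 minus Nanog response at E9.5 (Stmn2), 1 for the Oct4 response between stages, 6 for Nanog at E9.5, 3 for the Nanog response between stages and 9 for each stage comparison; it changed no call for Oct4 at E7.5. It could not be fitted for Nanog at E7.5 and Oct4 at E9.5, whose groups share 1 number. In the comparisons between responses, these inductions rested on that 1 shared number, so the block cannot decide the calls there. Same-numbered pools outside the Oct4 line at E7.5 had deviation correlations below 0.1. With 2 control pools in the Nanog groups and 1 shared number for Oct4 at E9.5, these values cannot decide whether such pools were paired.

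Signs turned as follows. Without 1 library, Elavl4 gave -0.165 to 0.0734 for Oct4 at E7.5 (above 0 without control replicate 1 or 3 or induced replicate 2 or 3). For Nanog at E9.5, Neurog1 gave -0.0268 to 0.288, Neurod1 -0.432 to 0.252 and Elavl3 -0.472 to 0.00791, Neurog1 with its sign turned without control replicate 2 and the others without control replicate 3. Between stages in controls, Stmn2 gave 0.0246 with library totals only in the Oct4 line, and -0.0792 to 0.303 without 1 library in the Nanog line (below 0 without control replicate 3 of E9.5). For the Oct4 minus Nanog response at E7.5, Neurog1 gave 0.242 by limma-voom, 0.101 with the replicate block and -4.94 to 0.608 without 1 library, and Elavl4 -0.0908 to 0.348 without 1 library. Dcx gave 0.0830 with the replicate block for the Oct4 minus Nanog response at E9.5. For the Oct4 response between stages, Stmn2 gave 0.0885 with the replicate block and -0.255 to 0.0192 without 1 library. The cause was not tested. Counts of 13 to 55 a pool limit Nhlh1, Nhlh2 and Neurod1 in the E9.5 induced pools. The low-count filter left out 5 of the 10 genes at E7.5 in the Oct4 line and 7 of the 10 in the Nanog line.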

Other observations

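Genes whose pattern over the 22 libraries was nearest to the mean centred profile of the 10 genes were St18, Grik2, Slit1, Pou3f4, Akap6, Vit, Tox and Srgap3. Their root mean square difference from it was 0.199 to 0.288 on the log2(CPM + 0.5) scale, against a median of 1.53 over the 12542 genes that averaged 5 CPM or more in any group. The members themselves ranged from 0.345 (Dcx) to 1.72 (Stmn2), and Elavl3 stood at 1.11. With Oct4 at E9.5, 5 of the 8 fell by the edgeR quasi-likelihood test: Pou3f4 by 2.04 ± 0.24 (adjusted p = 1.99e-05), St18 by 1.40 ± 0.28 (0.00403), Tox by 1.16 ± 0.18 (0.000309), Slit1 by 0.80 ± 0.14 (0.00689) and Srgap3 by 0.55 ± 0.06 (5.59e-06). The pattern was chosen on these libraries, so these values describe it and support nothing.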
